A study of Homo sapiens with 4 samples.

Results

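The mRNAs described here encode the proteasome, the protease complex that degrades ubiquitin-tagged proteins. Members were the gene symbols that begin with PSMA, PSMB, PSMC, PSMD, PSME, PSMF or PSMG and a number, without pseudogenes and antisense symbols, which gave 51 of the 44715 symbols measured. By role they comprised 19 genes of the core particle, 17 of the regulatory particle, 7 assembly factors and 5 activators and inhibitors. A further 3 symbols met the rule by their letters only and have no role in the complex. These were PSMC3IP and PSME3IP1, which encode proteins named for binding a subunit, and PSMD7-DT, a noncoding transcript beside PSMD7.

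RNA bound to the enzyme PHGDH was recovered by RNA immunoprecipitation and sequenced (RIP-seq) in HEK293T, an established line of human embryonic kidney origin that expresses SV40 large T antigen. The anti-PHGDH group held 2 libraries, precipitated with an antibody against PHGDH under native conditions, and the IgG group held 2 control libraries precipitated with an anti-IgG antibody. All 4 came from lysates of that line, and the design text calls the replicates biological. The 2 groups are compared to ask which RNAs the PHGDH protein binds, and no input library was used here, so levels refer to precipitated RNA and not to the cell.

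The proteasome is built from a barrel-shaped core, whose outer rings are alpha subunits (PSMA) and whose inner rings are beta subunits (PSMB), and from regulatory particles that cap it. A regulatory particle recognises ubiquitin chains and unfolds substrates with a ring of ATPases (PSMC) and a set of non-ATPase subunits (PSMD). Alternative caps, the PSME activators, open the core without ATP, and dedicated chaperones assemble each part. Dividing cell lines need the complex to survive, and its subunit genes are transcribed together through the factor NFE2L1 when protease activity falls short.

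Levels are given in CPM, the reads of a gene scaled to a common total of reads assigned to genes, and the libraries differed widely in what they detected. Reads assigned to genes ran from 1216477 (anti-PHGDH 2) to 3875746 (IgG 1). IgG 1 listed 4148 genes above 0, against 14518 to 16767 in the other libraries, and 61.9% of the 9524 genes tested were at 0 there. The mitochondrial genome contributed 28.8% of anti-PHGDH 1 reads and 3.37 to 8.69% of the reads in the others. Of 6 transcripts reported in HEK293 cells (PAX2, LHX1, EYA1, NEFL, NEFM and INA), 5 or 6 were above 0 in every library but IgG 1, where 2 were. Those 2 were NEFL (399 CPM) and NEFM (351 CPM). The summed level of the 6 was highest in IgG 1, at 751 CPM against 169 to 359 CPM in the other libraries. Of 7 markers of other cell types, PTPRC, CD3E, HBB and PECAM1 were at 0 in all 4 libraries. COL1A1, a fibroblast collagen, was at 8.62 and 12.3 CPM in the anti-PHGDH libraries, against 0 and 7.60 CPM in the IgG libraries. CD68, a myeloid marker, was at 2.67 and 0.822 CPM in anti-PHGDH 1 and 2, and ALB, a hepatocyte marker, at 0.297 CPM in anti-PHGDH 1, and neither was above 0 with IgG. The summed level of the 7 ran from 11.6 to 13.2 CPM with anti-PHGDH and from 0 to 7.60 CPM with IgG, and its part in the results was not tested. Results that rest on IgG 1 are given with and without it.

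Together the 48 mRNAs with a role took a smaller share of reads with anti-PHGDH than with IgG. The share was 0.593% in anti-PHGDH 1 (95% Wilson interval 0.585 to 0.602%) and 1.10% in anti-PHGDH 2 (1.08 to 1.12%). It was 1.30% in both IgG 1 (1.28 to 1.31%) and IgG 2 (1.28 to 1.32%). The groups did not overlap, but the anti-PHGDH libraries differed from each other by more than anti-PHGDH 2 differed from either IgG library. With 2 libraries per group an exact two-sided permutation test cannot go below p = 0.333. Counted over reads outside mitochondrial genes, the shares were 0.833 and 1.21% with anti-PHGDH and 1.35 and 1.35% with IgG.

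The reads were distributed differently over the parts of the complex. Core genes took 55.6 and 63.5% of the proteasome reads in anti-PHGDH 1 and 2, against 79.4 and 68.6% in IgG 1 and 2. Without PSMA2, which alone held 25.3% of the proteasome reads in IgG 1, the core shares were 53.3 and 62.0% with anti-PHGDH and 72.4 and 67.6% with IgG. Regulatory particle genes took 0.165 and 0.308% of all reads with anti-PHGDH and 0.249 and 0.313% with IgG, so the groups overlapped. The 5 activator and inhibitor genes were the only part of the 4 with a higher share in both anti-PHGDH libraries, 0.0615 and 0.0342% of all reads against 0.000103% (4 reads) and 0.0250% with IgG. Intervals on shares cover counting error only.

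**Figure D1:**
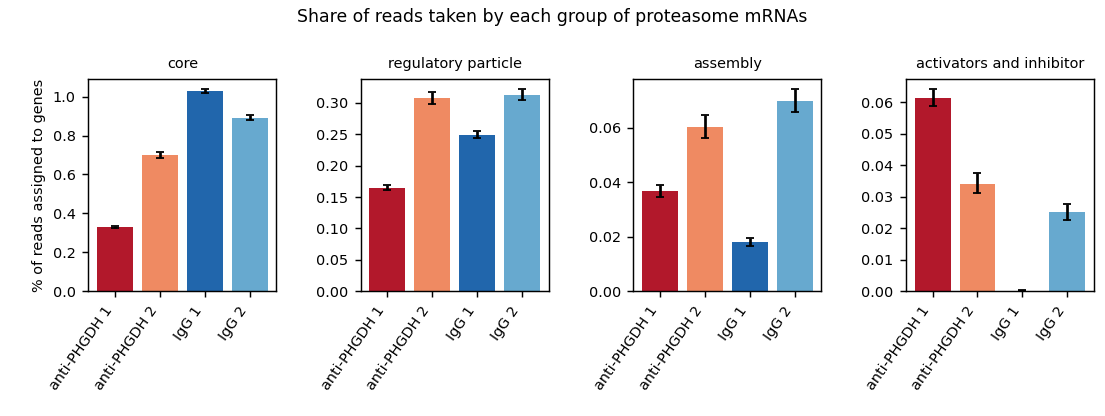
Percent of reads assigned to genes (vertical axes, each from 0) taken by core, regulatory particle, assembly, and activator and inhibitor mRNAs in each of the 4 libraries, with 95% Wilson intervals for counting error. Core shares are lower in both anti-PHGDH libraries (0.330 and 0.699%) than in both IgG libraries (1.03 and 0.892%), and activator and inhibitor shares are higher.

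The alpha subunits form the gated outer rings of the core. PSMA1 was at 108 and 204 CPM in anti-PHGDH 1 and 2 and at 338 and 227 CPM in IgG 1 and 2. PSMA4 was at 221 and 437 CPM with anti-PHGDH, against 658 and 551 CPM with IgG. Both were lower in each anti-PHGDH library than in each IgG library. PSMA2 (chromosome 7, 42916861 to 42932174, GRCh38.p14) stood out in IgG 1, at 295 and 427 CPM with anti-PHGDH, against 3275 and 418 CPM with IgG. It was 7.84 times as high in IgG 1 as in IgG 2, while anti-PHGDH 2 and IgG 2 were alike at a ratio of 1.02 (95% interval 0.910 to 1.15). On the log2(CPM + 1) scale its fold change was -1.72 (SE 1.27; adjusted p = 0.677 in limma), the lowest of the alpha subunits, and -0.23 without IgG 1.

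PSMA6 (chromosome 14, 35278558 to 35317493) lay at the other end, at 156 and 241 CPM with anti-PHGDH, against 0 and 263 CPM with IgG. Its log2 fold change was 3.58 (SE 1.93; adjusted p = 0.677 in limma) and was -0.44 without IgG 1, where IgG 2 is the only control. PSMA5 was also low in IgG 1, at 8.26 CPM against 180 CPM in IgG 2 and 87.6 and 219 CPM with anti-PHGDH. PSMA3 (65.7 and 116 CPM against 80.8 and 105 CPM) and PSMA7 (399 and 1073 CPM against 730 and 1198 CPM) had overlapping groups. All 7 alpha subunits tested were lower in anti-PHGDH 1 than in anti-PHGDH 2.

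The beta subunits of the inner rings include the catalytic ones, PSMB5, PSMB6 and PSMB7. PSMB6 was at 533 and 1346 CPM in anti-PHGDH 1 and 2 and at 1982 and 2194 CPM in IgG 1 and 2. PSMB1, a noncatalytic subunit (chromosome 6, 170535120 to 170553307), was at 425 and 1008 CPM against 2040 and 1554 CPM. Neither gene's groups overlapped. PSMB1 had the lowest log2 fold change of the beta subunits, -1.44 (SE 1.18; adjusted p = 0.677 in limma), and kept most of it without IgG 1 (-1.25). Within replicate number 2, anti-PHGDH over IgG gave a ratio of 0.613 for PSMB6 (95% interval 0.578 to 0.651), 0.648 for PSMB1 (0.605 to 0.695) and 0.679 for PSMB5 (0.622 to 0.740). These intervals compare reads of 2 libraries and cover counting error only.

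PSMB5, which carries the chymotrypsin-like activity, was at 403 and 644 CPM with anti-PHGDH, against 616 and 948 CPM with IgG, so 1 anti-PHGDH value lay above an IgG value. PSMB2 and PSMB4, both structural, stood near a ratio of 1 within replicate number 2, at 1.00 (95% interval 0.872 to 1.16) and 1.08 (0.962 to 1.22). PSMB7 (chromosome 9, 124353465 to 124415442), the trypsin-like subunit, had the highest log2 fold change of the beta subunits, 1.11 (SE 1.67; adjusted p = 0.682 in limma). It was at 138 and 206 CPM against 24.8 and 239 CPM, and its fold change was -0.50 without IgG 1 and -1.39 after centring on library medians.

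Inducible and tissue-restricted beta subunits replace the standard catalytic ones in immune cells and the thymus. Of the 4, only PSMB10, the inducible counterpart of PSMB7 (chromosome 16, 67934506 to 67936850), was measured above 0. It was at 197 and 361 CPM in anti-PHGDH 1 and 2 and at 83.9 and 373 CPM in IgG 1 and 2, with anti-PHGDH 2 and IgG 2 at a ratio of 0.968 (95% interval 0.853 to 1.10). The log2 fold change of PSMB10 was 0.59 (SE 1.49; adjusted p = 0.787 in limma), and was -0.48 without IgG 1 and -1.91 after centring on library medians.

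Of the 51 symbols, 8 were listed at 0 in all 4 libraries. PSMB8, PSMB9 and PSMB11 encode inducible or thymic subunits and PSMA8 a testis alpha subunit. PSMB3, a core beta subunit (chromosome 17, 38752741 to 38764225), and PSMC4, a base ATPase (chromosome 19, 39971165 to 39981764), belong to every proteasome and were listed at 0 as well. PSME1, an activator subunit, and the noncoding PSMD7-DT complete the 8. No level is drawn from these entries. A further 2 members were too low to test, PSMD5 at 3.27 and 2.47 CPM with anti-PHGDH and 0 and 5.07 CPM with IgG, and PSME2 at 1.49 and 2.47 CPM against 0 and 1.27 CPM. The remaining 41 members, 39 of them with a role, passed the filter of at least 5 CPM in at least 2 libraries.

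**Figure D2:**
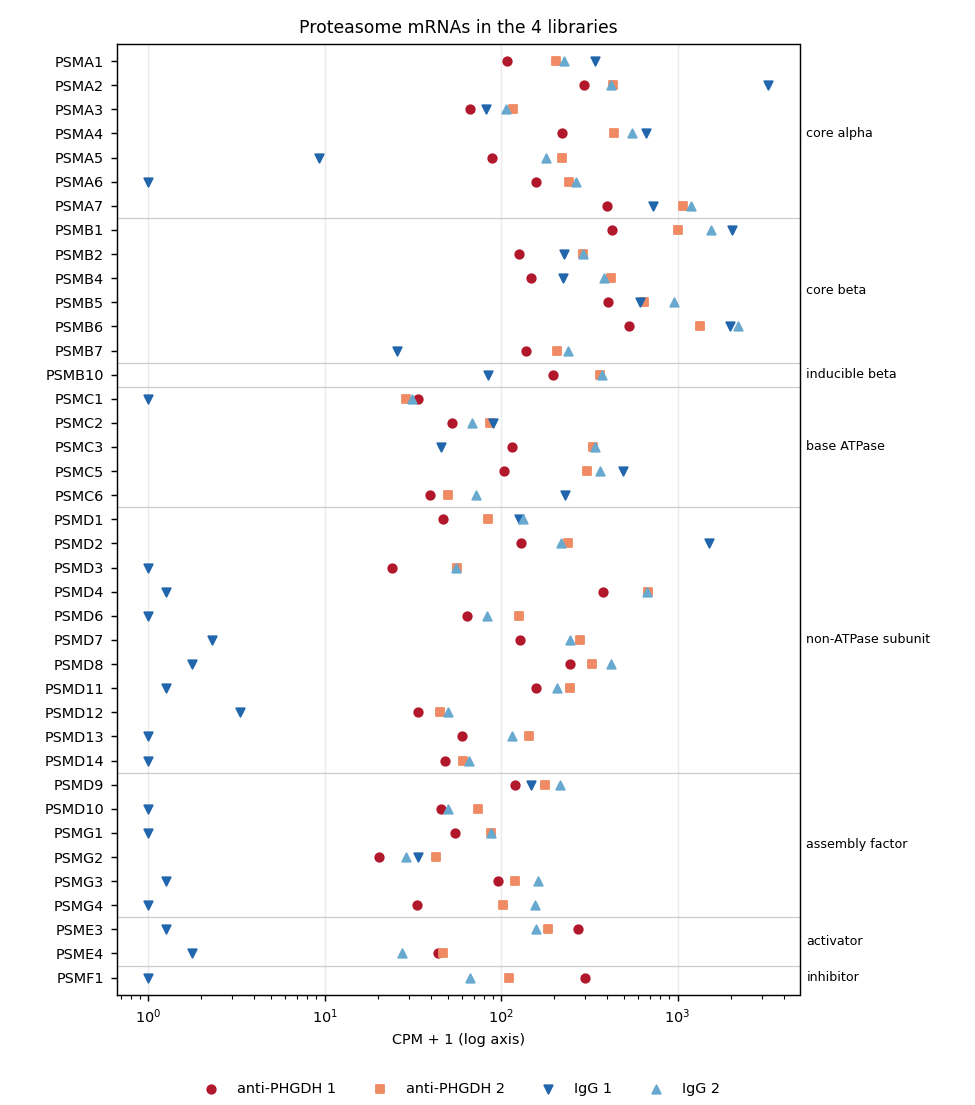
CPM + 1 on a log axis for the 39 proteasome mRNAs tested that have a role, 1 row per gene grouped by role, with 1 marker per library. Anti-PHGDH 2 and IgG 2 lie close together in most rows, and anti-PHGDH 1 is below anti-PHGDH 2 in 36 of 39. IgG 1 is at 0 to 10 reads for 9 of 11 non-ATPase subunits and 1 of 14 core genes, against 70.0% of all genes tested.

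The base ATPases thread substrates into the core. PSMC6 (chromosome 14, 52707200 to 52728590) was at 38.6 and 49.3 CPM with anti-PHGDH, against 229.9 and 71.5 CPM with IgG. PSMC5 was at 103 and 306 CPM against 491 and 363 CPM. Both genes were lower in each anti-PHGDH library than in each IgG library. PSMC6 had the lowest log2 fold change of the ATPases, -1.54 (SE 1.81; adjusted p = 0.677 in limma), and -0.70 without IgG 1.

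PSMC1 (chromosome 14, 90256553 to 90275429) was level across the 3 libraries that detected it, at 33.0 and 28.0 CPM with anti-PHGDH and 30.4 CPM in IgG 2, and was listed at 0 in IgG 1. Its log2 fold change of 2.48 (SE 2.68; adjusted p = 0.677 in limma), the highest of the ATPases, was -0.0013 without IgG 1 and -0.012 after centring on library medians. PSMC2 was at 51.7 and 85.5 CPM against 88.8 and 67.1 CPM, and PSMC3 at 115 and 331 CPM against 44.6 and 339 CPM. The groups overlapped for both.

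Among the 11 non-ATPase subunits, all of which were tested, IgG 1 held 0 to 10 reads for 9, against 70.0% of all genes tested. IgG 2 detected each of the 11. PSMD4, a ubiquitin receptor (chromosome 1, 151254734 to 151267479), was at 378 and 679.8 CPM in anti-PHGDH 1 and 2 and at 0.258 (1 read) and 670.5 CPM in IgG 1 and 2. Anti-PHGDH 2 and IgG 2 differed by a ratio of 1.01 (95% interval 0.925 to 1.11). Its log2 fold change of 4.13 (SE 1.65; adjusted p = 0.677 in limma) was the highest of the subunits with 4 libraries and was -0.40 without IgG 1. PSMD8 was at 246 and 325 CPM against 0.774 (3 reads) and 419 CPM, PSMD7 at 127 and 278 CPM against 1.29 (5 reads) and 246 CPM, and PSMD11 at 157 and 245 CPM against 0.258 (1 read) and 206 CPM.

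PSMD3, PSMD6, PSMD13 and PSMD14 were listed at 0 in IgG 1. PSMD14, the deubiquitinase of the lid, was at 47.2 and 60.0 CPM with anti-PHGDH, against 64.6 CPM in IgG 2. PSMD6 had the highest ratio of the subunits within replicate number 2, 1.52 (95% interval 1.19 to 1.93), at 125 against 82.3 CPM, but was at 63.3 CPM in anti-PHGDH 1. PSMD13 (1.26, interval 1.01 to 1.55) and PSMD11 (1.19, interval 1.01 to 1.39) showed the same arrangement, above IgG 2 in anti-PHGDH 2 and below it in anti-PHGDH 1. PSMD3 and PSMD12 were near a ratio of 1 within replicate number 2, at 1.01 (0.724 to 1.41) and 0.899 (0.623 to 1.29).

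The other 2 non-ATPase subunits, the scaffolds PSMD1 and PSMD2, were abundant in IgG 1. PSMD2 (chromosome 3, 184299241 to 184309050) was at 129 and 239 CPM with anti-PHGDH, against 1509 and 219 CPM with IgG. Its log2 fold change was -1.70 (SE 1.40; adjusted p = 0.677 in limma), the lowest of the subunits, and -0.32 without IgG 1. PSMD1 was at 46.1 and 83.0 CPM against 126 and 132 CPM, with no overlap between the groups, and its ratio within replicate number 2 was 0.627 (95% interval 0.490 to 0.799).

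The assembly factors chaperone the core (PSMG1 to PSMG4) and the base (PSMD5, PSMD9 and PSMD10). PSMD10, also known as gankyrin (chromosome X, 108084207 to 108091542), was at 44.9 and 73.2 CPM with anti-PHGDH, against 0 and 49.4 CPM with IgG. It had the highest log2 fold change of the assembly factors, 3.04 (SE 2.45; adjusted p = 0.677 in limma), and 0.21 without IgG 1. PSMD9 (chromosome 12, 121888790 to 121918297) was at 118 and 177 CPM against 147 and 214 CPM, with the lowest log2 fold change, -0.29 (SE 1.57; adjusted p = 0.902 in limma). PSMG4 had the lowest ratio of the assembly factors within replicate number 2, 0.657 (95% interval 0.525 to 0.819), at 32.4 and 102 CPM against 0 and 155 CPM. PSMG1 was at 54.1 and 87.1 CPM against 0 and 86.7 CPM, PSMG3 at 95.1 and 119 CPM against 0.258 (1 read) and 161 CPM, and PSMG2 at 19.3 and 41.9 CPM against 33.0 and 27.9 CPM. Groups overlapped for all 6 assembly factors tested, whereas over all genes tested both anti-PHGDH libraries lay above both IgG libraries for 38.3% and below both for 6.16%.

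PSME3, PSME4 and PSMF1 were the 3 activator and inhibitor genes tested. Their anti-PHGDH values lay above both IgG values on the CPM scale, as did those of 38.3% of all genes tested. After centring on library medians this held for PSMF1 only, and for 8.64% of all genes tested. Centring also lifts genes without reads in IgG 1. PSMF1, which encodes a protein known to inhibit the core particle in vitro (chromosome 20, 1113263 to 1172246), was at 297 and 110.2 CPM in anti-PHGDH 1 and 2 and at 0 and 65.8 CPM in IgG 1 and 2. These values rest on 1001, 134, 0 and 104 reads. It was the only member with a role whose anti-PHGDH 1 value was over 2 times its anti-PHGDH 2 value (2.70 times). Its log2 fold change of 4.48 (SE 2.10; adjusted p = 0.677 in limma) was the highest of the 41 members tested and remained the highest without IgG 1, at 1.45. Within replicate number 2 the ratio was 1.67 (95% interval 1.29 to 2.18), and anti-PHGDH 1 was 4.52 times IgG 2.

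PSME3, the nuclear activator subunit (chromosome 17, 42833397 to 42843760), was at 273 and 183 CPM with anti-PHGDH, against 0.258 (1 read) and 156 CPM with IgG. The log2 fold change of PSME3 was 4.00 (SE 1.93; adjusted p = 0.677 in limma), or 0.51 without IgG 1, and its ratio within replicate number 2 was 1.17 (95% interval 0.974 to 1.41). PSME4, a single-chain activator (chromosome 2, 53864069 to 53970993), was at 43.1 and 46.0 CPM against 0.774 (3 reads) and 26.6 CPM. That of PSME4 was 2.70 (SE 2.53; adjusted p = 0.677 in limma), or 0.72 without IgG 1, with a ratio of 1.73 within replicate number 2 (95% interval 1.14 to 2.65). Both anti-PHGDH libraries also lay above both IgG libraries for PSME3IP1, a member by symbol only, at 73.7 and 75.6 CPM against 0 and 62.7 CPM.

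**Figure D3:**
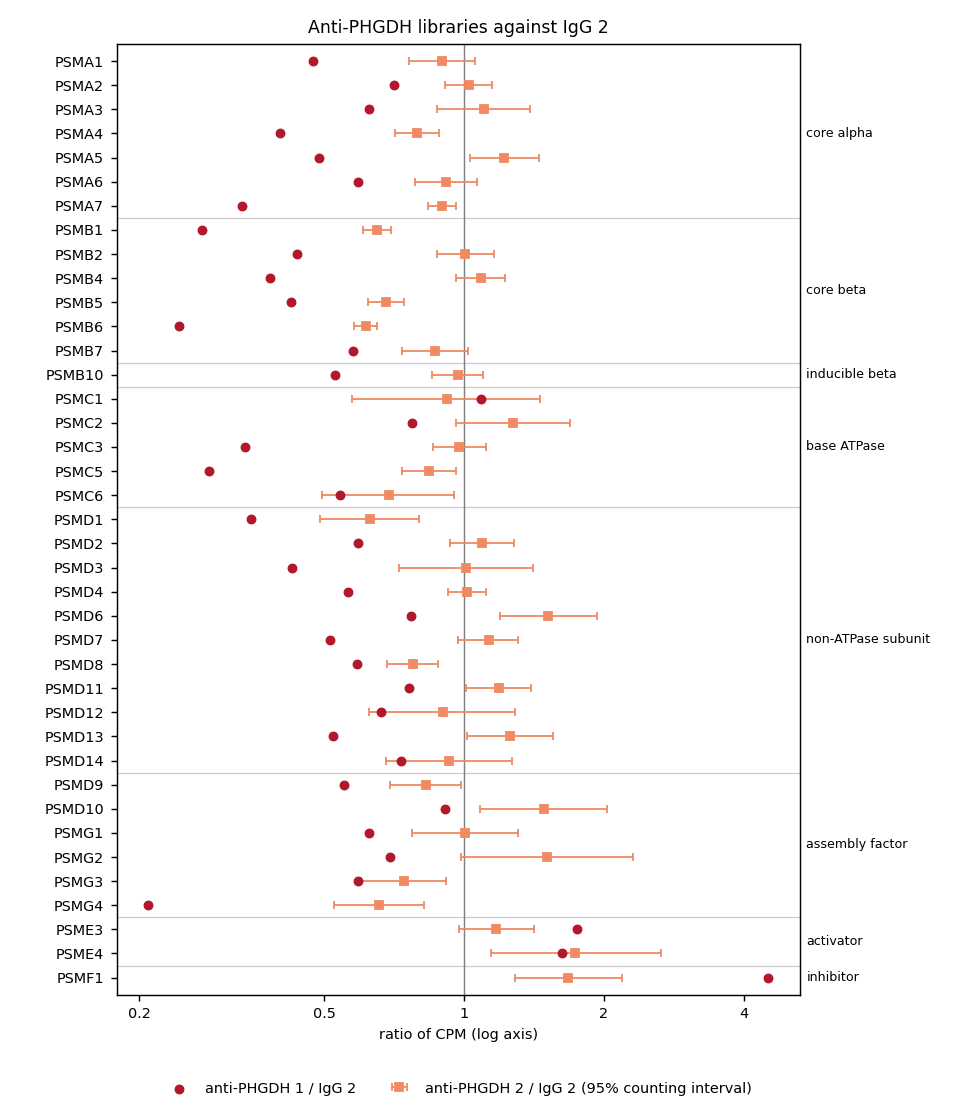
Ratio of CPM in each anti-PHGDH library to IgG 2 on a log axis, 1 row per gene grouped by role. Squares show anti-PHGDH 2 with 95% intervals for counting error, circles show anti-PHGDH 1, and the line marks a ratio of 1. Circles lie below 1 for all core and assembly genes and for all regulatory particle genes but PSMC1. Both markers of PSME3, PSME4 and PSMF1 lie above 1.

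In the comparison of the antibodies, 0 of the 41 members tested passed an adjusted p of 0.05 in limma in either direction. Over all 9524 genes tested 0.0105% passed as higher and 0% as lower. At an unadjusted p under 0.05 limma gave 3 members higher, PSMF1, PSME3 and PSMD4, and 0 lower, against 2.74% and 0% of all genes. The log2 fold change was above 0 for 23 of the 41, against 80.7% of all genes. edgeR's quasi-likelihood test and DESeq2 on the recovered reads gave 0 members at an unadjusted p under 0.05 in either direction. The adjusted p of PSMF1 ran from 4.5e-19 to 1.00 over the 20 settings, with the lowest value without IgG 2, where IgG 1 is the only control. That setting called 22 of the 41 members higher and 3 lower, against 74.9% and 10.8% of all genes tested.

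By counts without a variance estimate, a smaller share of members was higher without overlap, and a larger share lower, than over all genes tested. Both anti-PHGDH libraries were above both IgG libraries for 4 of the 41 members, against 38.3% of all genes tested, and below both for 7, against 6.16%. The 7 were PSMA1, PSMA4, PSMB1, PSMB6, PSMC5, PSMC6 and PSMD1. A gene at 0 in IgG 1 cannot count as lower. Among the 21 members with a role that had over 10 reads in IgG 1, 7 (33.3%) were below in both, against 20.6% of the 2855 such genes. None (0) were above in both, against 12.9%. The median log2 fold change was alike in these sets, -0.51 for the 21 members and -0.56 for the 2855 genes. By a 2-fold difference in every pair 0 members were higher and 0 lower, against 9.3% and 0.084% of all genes. Recomputed without mitochondrial genes, 7 members were above and 7 below without overlap, against 49% and 4.1% of all genes. With TMM scaling 4 were above and 12 below, against 31.9% and 9.05%. After centring on library medians, which raises IgG 1 most, 1 was above and 20 were below, against 8.64% and 33.2%. The median log2(CPM + 1) was 0 in IgG 1, against 4.32 to 4.68 in the other libraries. Centring thus gives a level to genes without reads in IgG 1, which limits what it can show.

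Without IgG 1 the separation between the roles was narrower. The log2 fold change turned sign for 18 of the 41 members when that library was left out, against 36.6% of all genes tested, and 17 of the 18 turned negative. Against IgG 2 alone, both anti-PHGDH libraries were higher for 3 of the 39 members with a role (PSME3, PSME4 and PSMF1), against 43.9% of all genes tested, and both were lower for 19, against 25.1%. The 19 comprised 9 of 14 core, 7 of 16 regulatory particle, 3 of 6 assembly and 0 of 3 activator and inhibitor genes. The median log2 fold change over the 39 was -0.44, against 0.14 over all genes tested. By role the median was -0.60 for core, -0.38 for regulatory particle, -0.45 for assembly, and 0.72 for activator and inhibitor genes.

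With all 4 libraries the medians were -0.47 for core, 2.40 for regulatory particle, 2.56 for assembly, and 4.00 for activator and inhibitor genes, against 1.92 over all genes tested. Core and regulatory particle medians thus lay farther apart with IgG 1 than without it. In that library 13 of 14 core genes had over 10 reads, against 6 of 16 regulatory particle, 2 of 6 assembly and 0 of 3 activator and inhibitor genes. Over all genes tested 70.0% were at 0 to 10 reads in IgG 1. These medians and counts describe the libraries, and no test was made of the difference between roles.

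**Figure D4:**
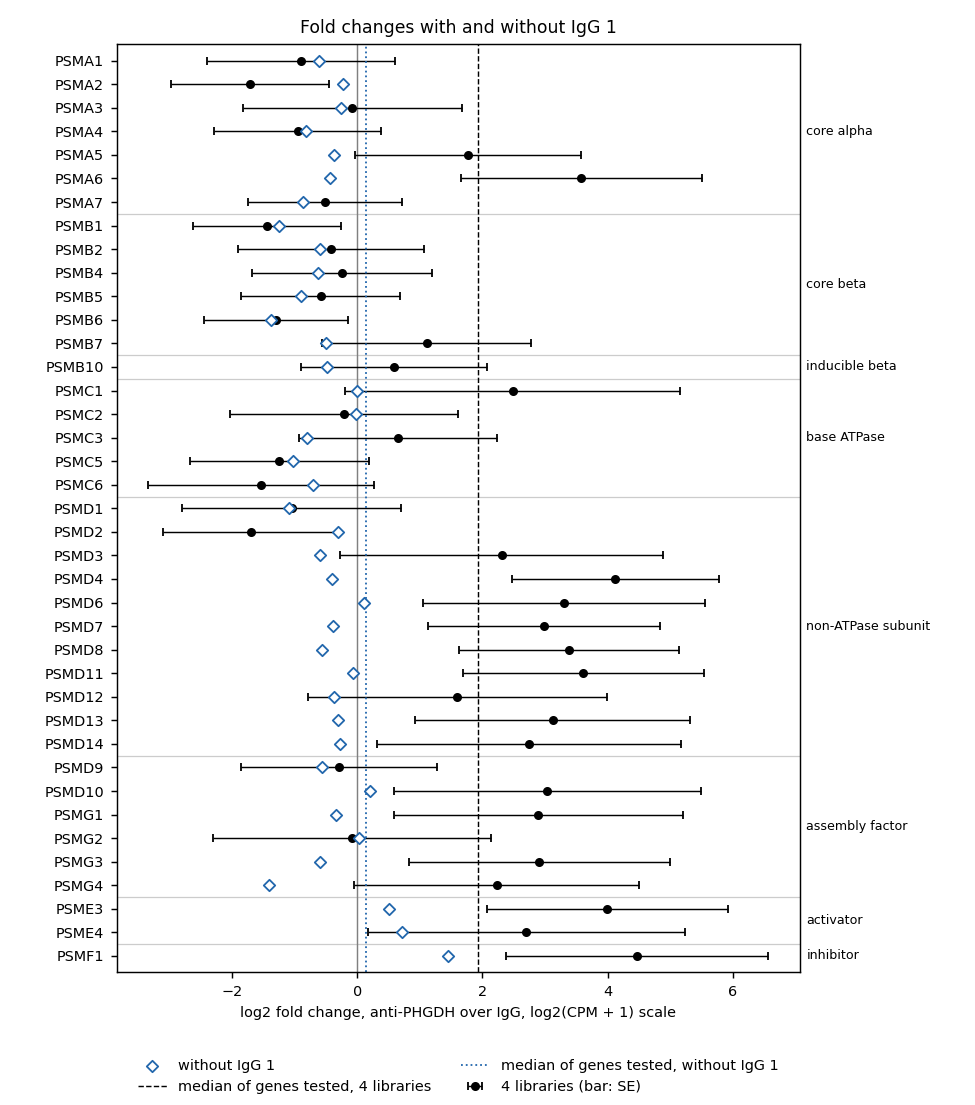
Log2 fold change of anti-PHGDH over IgG on the log2(CPM + 1) scale for the 39 proteasome mRNAs tested that have a role. Black points with SE bars use 4 libraries, open diamonds leave out IgG 1, and the dashed and dotted lines mark the medians of all genes tested (1.92 and 0.14). Most non-ATPase subunits move from above the dashed line to 0 or below once IgG 1 is left out.

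Members also differed between the anti-PHGDH replicates, which no comparison of the antibodies covers. Of the 39 with a role, 36 were lower in anti-PHGDH 1 than in anti-PHGDH 2 (92.3%), against 51.3% of all genes tested. The median ratio of anti-PHGDH 1 to anti-PHGDH 2 was 0.556 for these members and 0.976 over all genes. The exceptions were PSMC1, PSME3 and PSMF1. The larger mitochondrial share of anti-PHGDH 1 moves with this difference, and its part was not tested.

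Anti-PHGDH 2 and IgG 2 were close for these mRNAs. Across the 39 members, which share each library's depth, log2(CPM + 1) gave Pearson's r = 0.97 and Spearman's rho = 0.97 between them. Over all genes tested r was 0.93. The ratio ran from 0.613 to 1.73 with a median of 0.976. Over all genes tested the median ratio was 1.14. The ratio was above 1 for 19 members and below 1 for 20, against 63.1% above and 36.9% below for all genes. None of the 39 reached a 2-fold difference in either direction in this pair, against 14.5% of genes higher and 2.73% lower. The IgG libraries correlated across the members with r = 0.59 and the anti-PHGDH libraries with r = 0.90, against 0.51 and 0.85 over all genes tested. The order of these 3 pairs of libraries was thus the same over all genes.

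A list of 28 further genes of the ubiquitin-proteasome pathway was read beside the members, and all 28 were tested. In limma 0 of 28 passed an adjusted p of 0.05 in either direction, against 0.0105% of all genes tested as higher and 0% as lower. An unadjusted p under 0.05 was reached by 2, against 2.74% of all genes as higher and 0% as lower, among them UBA1, named here after its values were seen. UBA1, the ubiquitin-activating enzyme, was at 310.5 and 386 CPM against 0 and 213 CPM (log2 fold change 4.57, SE 1.83; adjusted p = 0.677 in limma), with a log2 fold change of 0.69 without IgG 1.

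Genes of that list that act on the proteasome itself or on its transcription varied in the same libraries. POMP, the maturation chaperone of the core, was at 618 and 1148 CPM with anti-PHGDH, against 3542 and 1657 CPM with IgG. SEM1, a small lid subunit outside the symbol rule, was at 282 and 922 CPM against 532 and 1157 CPM. ADRM1, a ubiquitin receptor of the regulatory particle, was at 186 and 121 CPM against 68.6 and 103 CPM. NFE2L1, the factor that drives proteasome genes, was at 22.3 and 27.1 CPM against 218 and 31.0 CPM. Other such genes were at 0 in IgG 1. USP14 was at 24.7 and 29.6 CPM against 0 and 23.4 CPM, without overlap. The groups overlapped for UCHL5 (42.8 and 82.2 CPM against 0 and 70.3 CPM) and PAAF1 (27.6 and 36.2 CPM against 0 and 30.4 CPM). The groups did not overlap for 10 of the 28 in the higher and for 2, POMP and NFE2L1, in the lower direction. These counts are near the 38.3% and 6.16% of all genes tested. The median log2 fold change of the 28 was 1.99, close to the 1.92 of all genes tested.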

How the data were processed

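RNA from 2 anti-PHGDH and 2 IgG precipitations was measured in HEK293T cells. The authors deposited 1 table of CPM values per library. STAR 2.5.4b, featureCounts and hg38 are named in the submitters' processing notes. The annotation, the use of strand, and the treatment of multi-mapping and duplicate reads are not given in the sources used here, and 24 pseudogenes and 4 antisense symbols of the family were left out. Whole reads were recovered from the CPM steps (at least 99.98% of values above 0 within 0.00051 CPM, including every member), and 1 read was worth 0.258 to 0.822 CPM. Coordinates come from RefSeq (GRCh38.p14), where all 51 members matched. The members and lists were chosen with earlier results of these data known.

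Genes that reached 5 CPM in 2 or more libraries were tested with limma 3.58.1 (R 4.3.3), two-sided, on log2(CPM + 1) with an intensity trend and Benjamini-Hochberg adjustment over 9524 genes. This scale understates the change of low genes. The prior degrees of freedom were infinite, so SEs follow the trend and not a gene's own spread. Ratios carry exact (Clopper-Pearson) 95% intervals. Alternatives included edgeR 4.0.16 and DESeq2 1.42.0 on recovered reads. On data simulated for this comparison (9013 genes), limma called 200 of 200 genes changed 8-fold and 6 unchanged ones. The simulation drew all 4 libraries from 1 mean profile at a dispersion of 0.05, without the many genes at 0 in IgG 1. It therefore checks the code and does not show the power of limma in these libraries. Full statistics are given for the tested member with the highest and lowest fold change in each role. A result for 1 gene of the pathway list is not reported here.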

Additional observations from a re-analysis of the deposited data

Results flagged for a closer look

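PSMG3-AS1, an antisense symbol left out of the members, was at 10.1 and 7.40 CPM in anti-PHGDH 1 and 2 and at 0 and 4.43 CPM in IgG 1 and 2. It was above both controls in both anti-PHGDH libraries, as were 38.3% of all genes tested. These values rest on 34, 9, 0 and 7 reads. PSMG3, on the other strand, was at 95.1 and 119 CPM against 0.258 and 161 CPM, and reads of the pair cannot be told apart unless strand was used.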

How the results depend on the processing

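The counts without overlap and the read and core shares, with their alternatives, were chosen after seeing the data. No member was called in limma, edgeR or DESeq2 except without IgG 2, so that leaving out 1 library gave from 0 to 22 called higher and from 0 to 3 lower. Of the pathway genes, 1 was called higher at a pseudocount of 0.1, and leaving out 1 library gave from 0 to 17 higher and from 0 to 2 lower. The 17 and the 2 of the 28 were found without IgG 2, where 74.9% of all genes tested were called higher and 10.8% lower. The number 2-fold higher in every pair was 2 at 1.5-fold, and from 0 to 23 without 1 library, with the 23 found without IgG 2. The number 2-fold lower was 1 after centring on medians, 1 after quantile normalization and 2 at 1.5-fold, and from 0 to 6 without 1 library. Without overlap, 1 member was higher after centring and 7 without mitochondrial genes, against 8.64% and 49% of all genes tested. This number ran from 4 (without IgG 1, against 43.9% of all genes) to 23 (without IgG 2) without 1 library. In the lower direction there were 12 with TMM factors and 20 after centring, against 9.05% and 33.2% of all genes tested. There were from 7 to 19 without 1 library, with the 19 found without IgG 1, against 25.1% of all genes. Shares of all genes were not counted for the other settings without 1 library or for these 2-fold alternatives.

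Relative to all genes tested, the median log2 fold change of the members with a role was -0.82. It was -2.25 at a pseudocount of 0.1, 0.011 at a pseudocount of 5, 0.084 without a filter, 0.31 after quantile normalization and -2.22 in edgeR fitted with a replicate block. It ran from -1.05 to -0.54 without 1 library. The core median, -2.39, was 0.12 after quantile normalization and ran from -3.80 (without IgG 2) to -0.74 (without IgG 1) without 1 library. The regulatory particle median, 0.47, was 1.52 without a filter, -0.43 in edgeR and -0.47 in DESeq2, and ran from -0.52 (without IgG 1) to 1.49 (without IgG 2). The assembly median, 0.64, was -0.82 in edgeR and -0.88 in DESeq2, and ran from -0.59 (without IgG 1) to 2.27 (without IgG 2). The activator and inhibitor median, 2.07, was 0.73 in edgeR and 0.73 in DESeq2, and ran from 0.58 (without IgG 1) to 3.88 (without IgG 2). The causes were not tested.

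The log2 fold change turned sign for 18 of the 41 members without IgG 1 and, after centring, for 8, against 51% of all genes tested after centring. Among the members given full statistics, those that turned without IgG 1 were PSMA6 (-0.44), PSMB7 (-0.50), PSMB10 (-0.48), PSMC1 (-0.0013) and PSMD4 (-0.40), and after centring PSMB7 (-1.39), PSMB10 (-1.91) and PSMC1 (-0.012). Leaving out 1 library, these 5 ran up to 7.61 (PSMA6), 2.72 (PSMB7), 1.66 (PSMB10), 4.97 (PSMC1) and 8.66 (PSMD4), each without IgG 2. The difference in read share, -0.45 percentage points, ran from -0.70 to -0.20 without 1 library, and that in core share, -14.4 points, from -19.8 to -9.08. The differences between numbers 1 and 2 in the 2 groups correlated at 0.0058 over all genes tested. That value cannot show whether the numbers pair the samples, because IgG 1 was at 0 for most genes. Fitted with the replicate block, limma called 0 members. With 2 libraries per group and IgG 1 at 0 for most genes, the controls limit every fold change.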

Other observations

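Of the symbols left out of the members, the 24 pseudogenes summed to 16 and 19 reads in anti-PHGDH 1 and 2 and to 58 and 28 reads in IgG 1 and 2. The 4 antisense symbols summed to 63 and 25 reads with anti-PHGDH and to 334 and 38 reads with IgG, and all 334 in IgG 1 belonged to PSMA3-AS1, against 313 of PSMA3. PSME2, an activator subunit, was equalled in anti-PHGDH 1 (5 reads each) and exceeded in the other 3 libraries by its pseudogene PSME2P1, which was at 1.49 and 6.58 CPM with anti-PHGDH, against 8.00 and 6.97 CPM with IgG. Whether reads were split between PSME2 and this pseudogene was not tested. PSMA3-AS1 was at 8.02 and 13.2 CPM with anti-PHGDH, against 86.2 and 18.4 CPM with IgG. It was below both controls, as were 6.16% of all genes tested.

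For 5 of the 7 protein-coding members listed at 0 in all 4 libraries, at least 5 of 10 neighbouring genes were listed at 0 too, a count made after the values were seen. Of the 10 nearest protein-coding genes with a value (5 on each side in RefSeq), 6 were at 0 throughout beside PSMB3, 5 beside PSMC4 and 8 beside PSME1. The number was 6 beside PSMB8, 7 beside PSMB9, 1 beside PSMB11 and 0 beside PSMA8. PSMB8 and PSMB9 each count among the other's neighbours and share TAP1, HLA-DQB2, HLA-DOB and HLA-DMB, so the 5 are not separate stretches. Over all 19271 protein-coding symbols matched, 29.3% were at 0 in all 4 libraries.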
